A study of Mus musculus with 2 samples.

Results

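Isg15 and the 4 genes of its conjugation machinery, Uba7, Ube2l6, Herc6 and Usp18, were followed across the cell classes of a mouse pancreatic tumor and between 2 treatments. These 5 genes were taken by symbol from the 32285 genes listed in both count matrices, and all 5 had counts in both libraries. They were chosen by name and function, with earlier results of these data known.

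ISG15 is a small ubiquitin-like protein that is attached to lysines of other proteins through a cascade like that of ubiquitin. Uba7 encodes the E1 enzyme that activates ISG15, Ube2l6 the E2 enzyme that carries it, and Herc6 the main E3 ligase of the mouse that places it on targets. Usp18 encodes the protease that removes ISG15 again, and its protein also binds the type I interferon receptor and dampens its signal. All are interferon-stimulated genes: the receptor acts through Jak1 and Tyk2, and Stat2 and Irf9 are among the proteins that then act at interferon-stimulated response elements (ISRE) in promoters. Free ISG15 is also secreted, and neutrophils, macrophages and T cells are all known to make it after interferon.

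Both libraries came from male C57BL/6J mice, sourced at 5 to 6 weeks of age, with orthotopic tumors of K210 cells, a single line derived from a mouse with Trp53 fl/fl and Pdx1-Cre. One group received PBS and the other cmExoaCD11b, exosomes that display an antibody to CD11b and carry both cGAMP, which activates STING, and mRNA of IL-12, at 5 µg of cGAMP per mouse. At 48 h after dosing, the tumor-infiltrating cells of 3 mice per group were combined into a single droplet library, so the animals within a pool cannot be told apart. With 1 library per treatment no test between treatments was possible and no difference has a replicate check.

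The PBS library held 67143628 UMIs (unique molecular identifiers) and the cmExoaCD11b library 81288480. After filtering, 6832 PBS cells with a median of 3459 UMIs and 7069 cmExoaCD11b cells with a median of 4110 UMIs were kept, and 15 barcodes occurred in both. A cell was put in a class when it held UMIs of at least 2 of the 8 marker genes of that class and at least 2 times as many marker genes as for any class of another lineage, which placed 76.5% of PBS and 75.9% of cmExoaCD11b cells. The 7 classes with at least 50 cells in both libraries were mature neutrophils (3633 PBS and 3361 cmExoaCD11b cells), immature neutrophils (691 and 725), monocytes (107 and 116), B cells (207 and 209), CD8 T cells (130 and 304), CD4 T cells (122 and 201) and other T cells (105 and 238), the last with UMIs of neither or of both coreceptors. Marker genes left out of the gate were highest in their own class for 9 of 11 classes. The exceptions were Lcn2, at 11839 CPM (UMIs of a gene scaled to a class total of 1000000) in immature against 13691 in mature neutrophils, and Ly6c2, at 426 CPM in monocytes against 963 in immature neutrophils.

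Droplets also hold free RNA, some of it of neutrophil genes, which this gate would read as markers of another lineage. Whether markers of several lineages in a cell came from free RNA or from doublets was not tested. A second gate, chosen after the class sizes had been seen, therefore counted a marker only where it exceeded the 99th percentile that a free-RNA share of 10% would give. It kept 224 PBS and 57 cmExoaCD11b macrophages, against 150 and 31 with the first gate, and macrophages are described with it. It also changed the immature neutrophils, whose median UMIs per cell were 2930 and 3982 with the first gate and 20147 and 19740 with the second. Values from the second gate are given where they move a result.

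The promoters of the genes were searched for elements through which interferon is known to act, and only those of Isg15 and Uba7 held a match. RefSeq promoter sequences, of build GRCm38.p6, matched 4 of the 5 genes, all but Usp18. The 120 bases before the transcription start of Isg15 and of Uba7 are printed 5′ to 3′ on the strand of the gene, because these were the promoters with a match. Capitals mark the ISRE core GAAANNGAAA in Isg15 and the shorter element AANNGAAA, on the opposite strand, in Uba7.
Isg15: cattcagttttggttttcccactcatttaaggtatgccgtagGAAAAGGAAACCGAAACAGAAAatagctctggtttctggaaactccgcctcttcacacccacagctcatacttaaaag
Uba7: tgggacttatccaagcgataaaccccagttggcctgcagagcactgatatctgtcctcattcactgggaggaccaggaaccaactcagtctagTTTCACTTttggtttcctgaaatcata

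Both elements were searched on both strands of the 250 bases before the start. Isg15 held 3 overlapping ISRE cores in 1 run of bases, the last of them starting 66 bases before the start. None of the other 3 promoters held the core, which occurred in 2.98% of 32851 promoters. The shorter element, which is contained in the core, was found 4 times in Isg15, 1 time in Uba7 and in neither Ube2l6 nor Herc6, and in 21.3% of all promoters. A match describes the letters and not a bound site.

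In the PBS library Isg15 was present in every class with enough cells, at levels that ranged from 20.2 to 1304 CPM, computed from the summed UMIs of all cells in a class and given with exact Poisson 95% intervals that, like all intervals here, cover counting error only. CD4 T cells had the highest level, 1304 CPM (1216 to 1397), followed by other T cells at 996 CPM (899 to 1102). In the PBS tumors both of these T cell classes thus held more Isg15 than any myeloid class. Macrophages of the first gate (368 CPM, 340 to 398), CD8 T cells (332 CPM, 295 to 371) and mature neutrophils (297 CPM, 289 to 304) came next, and the intervals of these neighbors overlapped except between macrophages and mature neutrophils. Monocytes held 196 CPM (168 to 227) and immature neutrophils 66.3 CPM (60.8 to 72.1), each apart from its neighbors in that order. B cells were last at 20.2 CPM (12.9 to 30). With the second gate mature neutrophils (353 CPM, 344 to 362) were above macrophages (306 CPM, 288 to 326).

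In the cmExoaCD11b library the order changed. Other T cells were highest at 1830 CPM (1743 to 1920), and CD4 T cells at 1531 CPM (1456 to 1608) and monocytes at 1471 CPM (1391 to 1554) followed with overlapping intervals. By summed UMIs, monocytes had moved from below mature neutrophils to above them. This order depends on how deep and shallow cells are weighted. With each cell thinned at random to 1000 UMIs, the mean was 1.12 Isg15 UMIs in monocytes and 1.34 in mature neutrophils of cmExoaCD11b. The second gate gave means of 0.993 and 1.42. CD8 T cells held 990 CPM (939 to 1042), mature neutrophils 747 CPM (737 to 758), NK cells 371 CPM (298 to 456), immature neutrophils 99.3 CPM (93.2 to 106) and plasma cells 93.3 CPM (80.7 to 107). B cells again were last, at 41.1 CPM (30 to 55.0). With the second gate monocytes held 939 CPM (904 to 974), apart from CD4 T cells at 1601 CPM (1532 to 1673). They were then also below macrophages at 1219 CPM (1135 to 1308), and their interval overlapped that of CD8 T cells at 915 CPM (870 to 962).

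**Figure D1:**
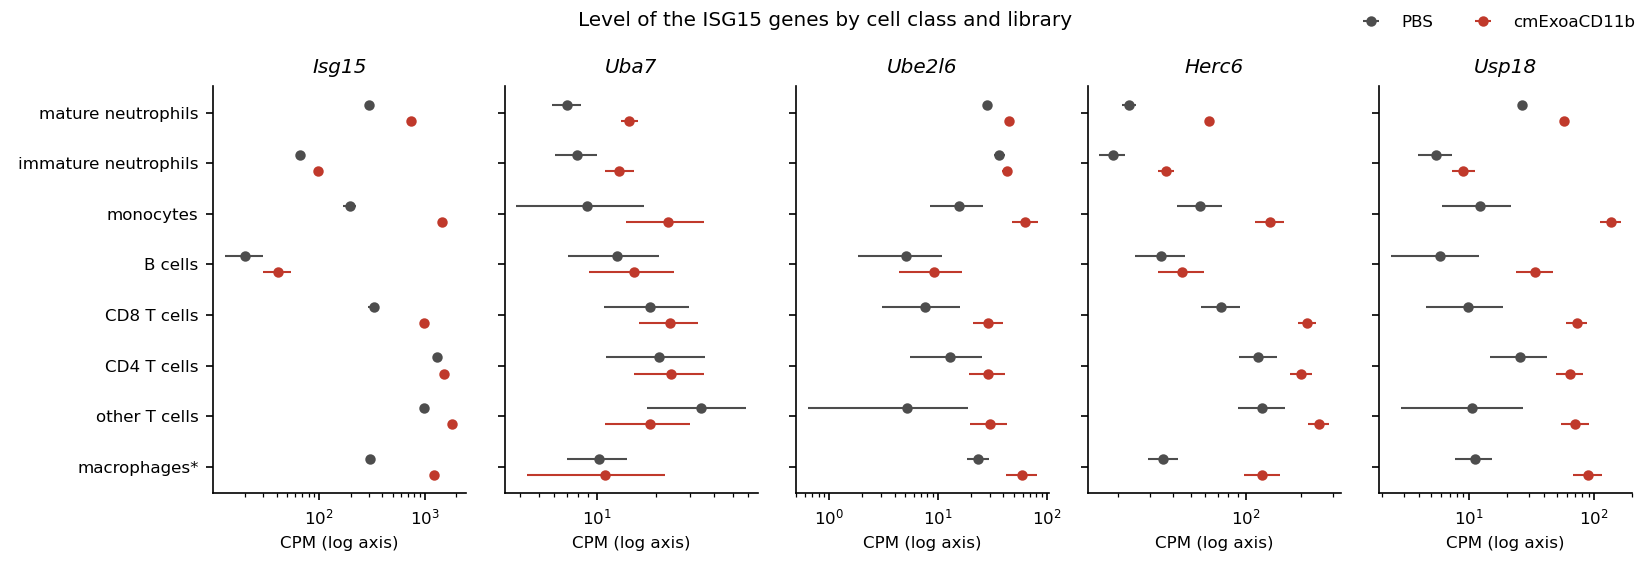
Level of each gene (CPM, log axis, a different range in each panel) in each class for the PBS library (grey) and the cmExoaCD11b library (red), with exact Poisson 95% intervals, and with the class marked * taken from the second gate. Isg15 lies to the right in cmExoaCD11b in every class, and its PBS level is highest in CD4 T cells, at 1304 CPM.

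Isg15 was higher in the cmExoaCD11b library in all 7 classes, with the interval of the ratio above 1 in each, and at least 2-fold higher in 4 of 7. The number of classes at least 2-fold higher was between 2 and 5 under other processing. Monocytes had the highest ratio, 7.51 (6.42 to 8.84), from 177 UMIs in PBS and 1279 in cmExoaCD11b. The second gate gave 5.10 (4.61 to 5.66) from 438 and 2801 UMIs. CD8 T cells followed at 2.98 (2.63 to 3.39) and mature neutrophils at 2.52 (2.45 to 2.60). B cells had 24 and 45 UMIs, a ratio of 2.04 (1.22 to 3.50), which was 1.22 (0.833 to 1.78) with the second gate. Other T cells (1.84, 1.64 to 2.06), immature neutrophils (1.5, 1.35 to 1.67) and CD4 T cells (1.17, 1.08 to 1.28) were under 2-fold. With the first gate the class with the highest level in PBS, CD4 T cells, thus had the lowest ratio. The second gate gave CD4 T cells 1.22 (1.13 to 1.31), the same ratio as in B cells. Among all genes with at least 50 UMIs, the 5th to 95th percentiles of the ratio were 0.667 to 1.75 in CD4 T cells. They were 0.707 to 1.79 in immature neutrophils and 0.658 to 1.81 in other T cells. With the first gate Isg15 thus lay within this spread in CD4 T cells and immature neutrophils, and above it in the other classes.

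The value in immature neutrophils turned on the gate. With the second gate, which kept deeper cells, Isg15 was 15.8 CPM in PBS and 74.9 CPM in cmExoaCD11b, a ratio of 4.75 (4.06 to 5.57). The PBS level was then the lowest of the classes with at least 50 PBS cells. It (13.6 to 18.2) was not above the 16.5 CPM that free RNA would give at the share estimated below for this gate from B cells. Those PBS B cells had a median of 3209 UMIs, and the PBS immature neutrophils of this gate 20147. Whether the share holds in such deeper cells was not tested, so the part of free RNA in this level is not known. With this gate Lcn2 was highest in immature neutrophils, at 16038 CPM against 12386 in mature neutrophils, but S100a9, a marker of the mature class, was also higher there, at 104568 CPM against 96374 in mature neutrophils. Ly6c2, the monocyte marker left out of the gate, was again lower in monocytes (672 CPM) than in immature neutrophils (994 CPM).

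Macrophages, with the second gate, held 306 CPM of Isg15 in PBS (288 to 326) and 1219 CPM in cmExoaCD11b (1135 to 1308), a ratio of 3.98 (3.62 to 4.37). The first gate gave 2.39 (2.06 to 2.78) on 150 and 31 cells. The remaining classes had fewer than 50 cells in at least 1 library with either gate. Plasma cells held 14.5 CPM in 35 PBS cells and 93.3 CPM in 97 cmExoaCD11b cells. NK cells went the other way for Isg15, with 685 CPM in 25 PBS cells (508 to 903) and 371 CPM in 64 cmExoaCD11b cells (298 to 456), a ratio of 0.542 (0.379 to 0.782). The second gate gave 919 CPM in 31 and 526 CPM in 130 NK cells, and 779 CPM in 36 and 1151 CPM in 69 dendritic cells. Usp18 did not fall in NK cells, with 1 and 15 UMIs (4.52, 0.695 to 190), and 1 and 38 with the second gate (8.45, 1.43 to 342). For Uba7, Ube2l6 and Herc6 the intervals in NK cells included 1 with both gates.

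How often the same ratios occurred among all genes is given for each class over the genes with at least 50 UMIs in both libraries together. In mature neutrophils, 3.47% of 10509 genes were at least 2-fold higher and 5.64% at least 2-fold lower in cmExoaCD11b, and 4 of the 5 genes described here were higher (all but Ube2l6). In immature neutrophils, 3.20% of 9994 genes were higher and 1.42% lower, and 0 of the 5 were higher with the first gate. In monocytes, 5.46% of 4690 genes were higher and 3.43% lower, and all 4 of the genes with enough UMIs were higher. In B cells, 1.64% of 5783 genes were higher and 2.04% lower, and 1 of the 2 with enough UMIs, Isg15, was higher. In CD8 T cells, 4.57% of 6038 genes were higher and 3.46% lower, and 3 of 4 were higher. In CD4 T cells, 2.74% of 4992 genes were higher and 0.741% lower, and 1 of 3, Usp18, was higher. In other T cells, 3.28% of 4181 genes were higher and 0.981% lower, and 2 of 3, Herc6 and Usp18, were higher. In macrophages of the second gate, 4.55% of 7168 genes were higher and 4.20% lower, and all 4 with enough UMIs were higher. None of the 5 genes was at least 2-fold lower in any of these 8 classes where it had 50 UMIs.

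The median ratio of the genes with enough UMIs was 2.15 in mature neutrophils, 1.65 in immature neutrophils, 5.80 in monocytes and 3.72 in macrophages. The medians of all genes in the same classes were 1.02, 1.14, 1.05 and 1.05. In the lymphocytes the median was 1.67 in B cells, 2.97 in CD8 T cells, 1.71 in CD4 T cells and 2.02 in other T cells, beside 1.04, 1.06, 1.04 and 1.02 for all genes. In total, 15 of 26 combinations of gene and class were at least 2-fold higher over the 7 classes of the first gate.

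**Figure D2:**
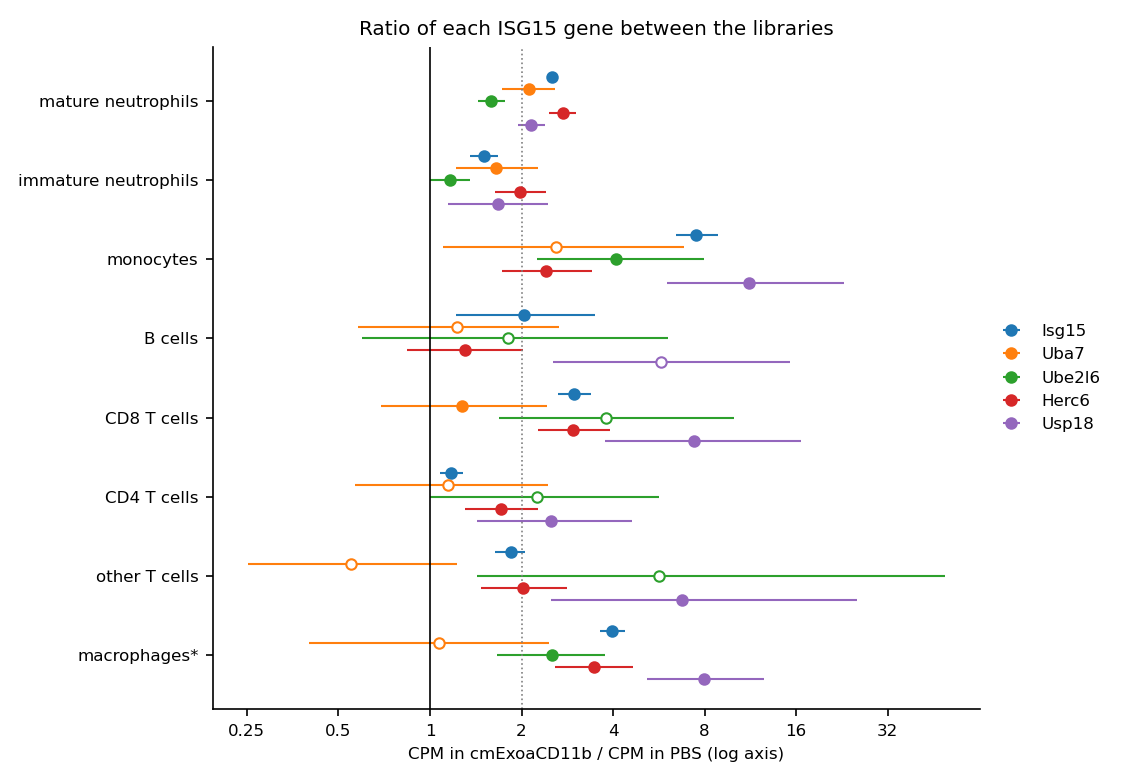
Ratio of the CPM in cmExoaCD11b to that in PBS (log axis) for each gene in each class, with exact conditional 95% intervals, the solid line at 1 and the dotted line at 2. Open points have fewer than 50 UMIs in both libraries together, and the class marked * is from the second gate. Usp18 reaches the highest ratio in 5 of the 7 classes without the mark, 11.2 in monocytes, and Uba7 in other T cells is the one point below 1.

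Cell by cell, Isg15 was found in more cells of the cmExoaCD11b library. Each cell was thinned to 1000 UMIs, so that depth could not decide the share, and shallower cells were left out (369 PBS and 441 cmExoaCD11b cells). Among mature neutrophils, 17.4% of 3519 PBS cells (16.2% to 18.7%, exact Clopper-Pearson) and 41.0% of 3260 cmExoaCD11b cells (39.3% to 42.7%) then held an Isg15 UMI. Cells with at least 3 Isg15 UMIs were 6.02% and 16.6% of them, and cells with at least 10 were 0.767% and 2.48%. Isg15 in neutrophils was thus both more widespread and higher in its upper range.

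Monocytes went from 14.6% (8.39% to 22.9%) to 41.8% (32.5% to 51.6%), and CD8 T cells from 17.7% (11.6% to 25.4%) to 40.2% (34.6% to 46.0%). In both, the intervals of the libraries lay apart. CD4 T cells were at 46.7% (37.6% to 56.0%) and 51.7% (44.6% to 58.8%), and other T cells at 44.4% (34.5% to 54.8%) and 55.0% (48.3% to 61.5%). In these T cells the intervals of the share overlapped between the libraries, whereas those of the CPM lay apart. Both intervals count cells or UMIs within 1 library per treatment, so neither tests a difference between the treatments. Immature neutrophils were at 7.63% and 13.8% with the first gate and at 0.578% (3 of 519 cells) and 6.47% (41 of 634 cells) with the second. B cells gave the lowest shares of the 7 classes of the first gate, 2.02% (0.553% to 5.09%) and 4.43% (2.05% to 8.25%), at 3706 and 4377 median UMIs before thinning. B cells also express Isg15 when exposed to interferon, so their share is not a true blank.

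**Figure D3:**
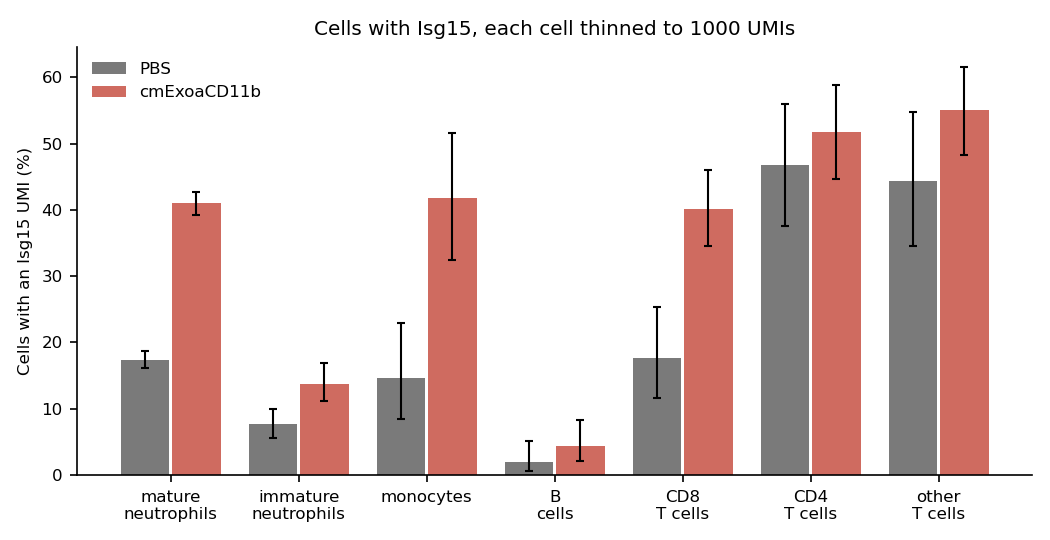
Share of cells with at least 1 Isg15 UMI after thinning each cell to 1000 UMIs (bars, first gate, starting at 0) with exact Clopper-Pearson 95% intervals (lines). The bars of the 2 libraries stand well apart in mature neutrophils (17.4% and 41.0%), monocytes and CD8 T cells, and their intervals overlap in B cells, CD4 T cells and other T cells.

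The distribution over cells was uneven. The 352 PBS mature neutrophils with most Isg15, 10% of the class, held 84.6% of its thinned Isg15 UMIs, and the top 10% in cmExoaCD11b, 326 cells, held 59.8%. The single highest cell held 23 and 42 Isg15 UMIs of 1000. In monocytes the top 10% held 81.8% in PBS, of only 22 UMIs, and 48.8% of 123 UMIs in cmExoaCD11b. CD4 T cells were more even in both libraries, with 47.3% and 48.9% in the top 10%. Other T cells were close to them, with 47.8% and 49.9%. This share also depends on the level, because few UMIs can only lie in few cells. The thinned mean was 0.483 and 1.34 Isg15 UMIs in mature neutrophils and 1.37 and 1.76 in CD4 T cells. The part of the level in these shares was not tested.

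Because neutrophils were the bulk of the cells, they also held the bulk of the Isg15 message. Mature neutrophils had 66.5% of the 8844 Isg15 UMIs of all classed PBS cells and 71.5% of 26681 in cmExoaCD11b, beside 56.8% and 58.1% of all UMIs. CD4 T cells had 9.17% and 5.98% of the Isg15 UMIs, with 1.78% and 2.37% of all UMIs. Over all cells, Isg15 was 255 CPM in PBS and 594 CPM in cmExoaCD11b, a ratio of 2.33. Within classed cells the ratio was 2.40, and it was 2.36 when both libraries were given the same make-up of classes. The same step gave 1.69 and 1.68 for Uba7, 1.48 and 1.52 for Ube2l6, 2.43 and 2.42 for Herc6 and 2.41 and 2.44 for Usp18. The ratios over all classed cells thus were almost the same with the class make-up held equal.

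Uba7, the E1 enzyme, was a rare message. It had 138 UMIs in PBS and 374 in cmExoaCD11b mature neutrophils, or 6.95 CPM (5.84 to 8.22) and 14.6 CPM (13.2 to 16.2), and thus a 2.11-fold level (1.73 to 2.58). In immature neutrophils the ratio was 1.65 (1.22 to 2.27). Monocytes had 8 and 20 UMIs, a ratio of 2.60 (1.10 to 6.82), under the minimum of 50 UMIs. CD8 T cells had 17 and 34 UMIs (1.27, 0.689 to 2.42), CD4 T cells 13 and 25 (1.15, 0.565 to 2.44) and B cells 15 and 17 (1.23, 0.579 to 2.65), and in these lymphocytes the interval included 1. In other T cells Uba7 was 34.1 CPM in PBS and 18.7 CPM in cmExoaCD11b, on 13 and 17 UMIs (0.550, 0.252 to 1.23), and the second gate gave 0.842 (0.441 to 1.68) on 15 and 31. In macrophages it was 10.2 and 10.9 CPM (1.07, 0.400 to 2.46). An interval above 1 was thus seen in the neutrophils and monocytes and not in lymphocytes or macrophages, but no difference between classes was tested.

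Ube2l6, the E2 enzyme, was the one gene of the 5 that was highest in immature neutrophils in PBS, at 36.8 CPM (32.8 to 41.2). There it was 42.8 CPM in cmExoaCD11b, a ratio of 1.16 (1.00 to 1.35), and 1.03 (0.919 to 1.15) with the second gate. Mature neutrophils went from 28.3 CPM (26.0 to 30.8) to 45.1 CPM (42.5 to 47.8), which is 1.59 times as much (1.44 to 1.76). The mean of the cells' own CPM gave 2.25 in immature neutrophils. In mature neutrophils the second gate gave 1.86 (1.65 to 2.11), and a gate with no marker of another lineage 1.01. Monocytes had 14 and 55 UMIs (4.08, 2.24 to 7.95, and 2.57, 1.80 to 3.74, with the second gate). Macrophages had 76 and 38 UMIs at 23.4 and 59.0 CPM (2.52, 1.66 to 3.77). In T cells the counts were low, with 7 and 42 UMIs in CD8 T cells (3.8, 1.69 to 10.0), 8 and 30 in CD4 T cells (2.24, 1.00 to 5.65) and 2 and 27 in other T cells (5.68, 1.43 to 49.3). The second gate gave 2.38 (0.99 to 6.92) in other T cells, on 6 and 35 UMIs, and 1.75 (0.895 to 3.62) in CD4 T cells, intervals that included 1. B cells had 6 and 10 UMIs.

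Herc6, the E3 ligase, followed Isg15 most closely over classes. It was highest in other T cells (123 CPM, 90.5 to 164) and CD4 T cells (117 CPM, 92.0 to 148) in PBS and lowest in immature neutrophils (18.7 CPM, 15.8 to 21.9). In cmExoaCD11b it was again highest in other T cells, at 249 CPM (218 to 284). CD8 T cells went from 73.3 to 216 CPM (2.95, 2.26 to 3.90), mature neutrophils from 23.0 to 62.8 CPM (2.73, 2.46 to 3.03) and monocytes from 56.4 to 136 CPM (2.41, 1.72 to 3.41). These 3 classes and other T cells (2.02, 1.47 to 2.83) were at least 2-fold higher, 4 of 7 in all. Immature neutrophils were at 1.97 (1.63 to 2.40), CD4 T cells at 1.71 (1.30 to 2.26) and B cells at 1.30 (0.841 to 2.02), the one class of the first gate whose interval included 1. With the second gate B cells were at 1.79 (1.19 to 2.69), immature neutrophils at 2.20 (1.81 to 2.69) and other T cells at 1.98 (1.51 to 2.64). Macrophages went from 35.4 to 123 CPM (3.47, 2.57 to 4.66).

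Usp18, the ISG15 protease and brake on the interferon receptor, had the highest ratio of the 5 genes in 5 of the 7 classes. Monocytes went from 12.2 CPM (6.07 to 21.8) to 136 CPM (112 to 162), 11.2 times as much (6.01 to 23.0) on 11 and 118 UMIs. Macrophages went from 11.1 to 88.5 CPM (7.99, 5.18 to 12.5), CD8 T cells from 9.85 to 72.9 CPM (7.40, 3.75 to 16.6) and other T cells from 10.5 to 70.5 CPM (6.73, 2.50 to 25.4). In PBS these classes had few Usp18 UMIs, from 4 in other T cells to 36 in macrophages, so the intervals are wide. B cells had 7 and 37 UMIs (5.75, 2.53 to 15.3) and CD4 T cells 16 and 67 (2.50, 1.43 to 4.62). Mature neutrophils had the highest PBS level, 26.7 CPM (24.5 to 29.1), but the interval overlapped that of CD4 T cells (25.7 CPM, 14.7 to 41.8). The ratio in mature neutrophils was 2.15 (1.95 to 2.38). Immature neutrophils went from 5.40 to 9.02 CPM (1.67, 1.15 to 2.45) with the first gate and from 1.44 to 8.04 CPM (5.58, 3.34 to 9.89) with the second. The PBS level of the second gate was not above the 1.64 CPM that free RNA would give at the share estimated for that gate. That share came from shallower B cells, and whether it holds in these deeper cells was not tested. The interval was above 1 in all 7 classes, and the ratio was at least 2 in 5 of the 6 with 50 UMIs.

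Set against Isg15 in the same cells, the genes did not change in proportion. In mature neutrophils there were 9.55 Ube2l6 UMIs per 100 Isg15 UMIs in PBS and 6.03 in cmExoaCD11b. The ratio of Ube2l6 was thus 0.631 times that of Isg15 (0.568 to 0.703), and 0.792 times (0.699 to 0.898) with the second gate. That of Herc6 was 1.08 times (0.970 to 1.21), an interval that included 1, and 1.18 times (1.05 to 1.33) with the second gate. In monocytes the ratio of Herc6 was 0.32 times that of Isg15 (0.220 to 0.471) and that of Uba7 0.346 times (0.143 to 0.923) with the first gate. The second gate gave 0.637 (0.489 to 0.836) for Herc6 and 0.599 for Uba7, the latter with an interval from 0.310 to 1.25. The ratio of Usp18 was 1.48 times that of Isg15 there, with an interval from 0.780 to 3.12, and 1.99 times (1.26 to 3.30) with the second gate. In the lymphocytes the ratio of Usp18 was above that of Isg15, 2.48 times in CD8 T cells (1.24 to 5.63), 2.13 times in CD4 T cells (1.21 to 3.96), 3.66 times in other T cells (1.35 to 13.9) and 2.82 times in B cells (1.02 to 8.57). In macrophages it was 2.01 times that of Isg15 (1.29 to 3.17). In mature neutrophils it was 0.853 times that of Isg15 (0.769 to 0.948). These intervals compare 2 libraries, not the treatments.

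Within mature neutrophils the levels of the other 4 genes were highest in the cells with most Isg15. Cells were split by their Isg15 UMIs after thinning, and the other genes were measured over all UMIs of those cells. In PBS, Usp18 was 9.38 CPM in 2905 cells with 0 Isg15 UMIs after thinning (8.0 to 10.9), 73.9 CPM in 402 cells with 1 to 2 (61.2 to 88.5) and 362 CPM in 212 cells with 3 or more (318 to 411). Herc6 was 9.72, 53.2 and 291 CPM, Uba7 5.32, 15 and 29.8 CPM and Ube2l6 26.4, 30.7 and 76.1 CPM. For Ube2l6 the intervals of the cells with 0 (24.1 to 28.9) and with 1 to 2 (22.7 to 40.6) overlapped. In the PBS tumors all 4 genes were thus highest, over summed cells, in the neutrophils with most Isg15. The median UMIs per cell were 3532, 3064 and 2906 in these bins, and 481 of the 2905 cells had held Isg15 before thinning.

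In cmExoaCD11b the same bins held 1925, 794 and 541 cells, with median UMIs of 6060, 3766 and 3074, and 910 of the 1925 cells with 0 after thinning had held Isg15 before it. The bins are thus not alike between the libraries. In the cells with 3 or more Isg15 UMIs, Herc6 was 304 CPM (281 to 328) against 291 CPM in PBS (251 to 335) and Ube2l6 71.0 CPM (60.1 to 83.3) against 76.1 CPM (56.6 to 100), with overlapping intervals. Usp18 was lower there, 267 CPM (246 to 290) against 362 CPM. In the cells with 0 Isg15 UMIs after thinning, all 4 genes were higher in cmExoaCD11b. Herc6 was 30.7 CPM (28.2 to 33.4) against 9.72 CPM (8.31 to 11.3) and Usp18 25.8 CPM (23.5 to 28.3) against 9.38 CPM (8.0 to 10.9). Ube2l6 was 43.0 CPM (40.0 to 46.2) against 26.4 CPM (24.1 to 28.9) and Uba7 11 CPM (9.56 to 12.7) against 5.32 CPM (4.29 to 6.52). In the cmExoaCD11b cells with 1 to 2 Isg15 UMIs, Ube2l6 was 41.9 CPM (36.6 to 47.7), no higher than in those with 0. The part of depth, and of the cells that held Isg15 before thinning, in these values was not tested.

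**Figure D4:**
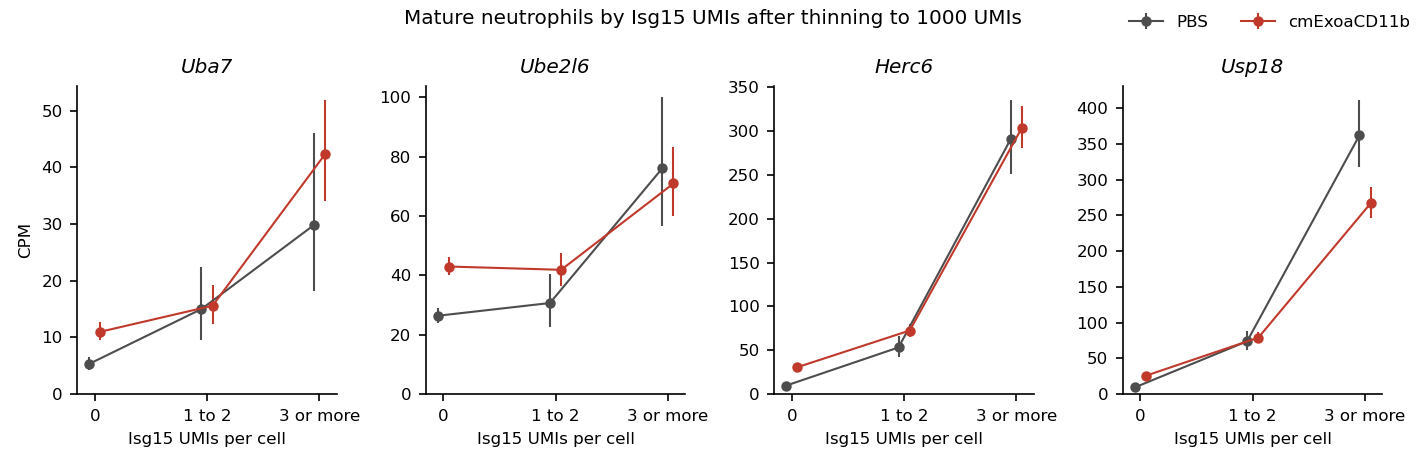
Level of the other 4 genes (CPM, linear axes from 0) in mature neutrophils with 0, 1 to 2, or 3 or more Isg15 UMIs after thinning to 1000 UMIs, in PBS (grey) and cmExoaCD11b (red), with exact Poisson 95% intervals. All 4 genes are highest in the cells with 3 or more Isg15 UMIs in both libraries, where Herc6 is 291 and 304 CPM.

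The T cells gave the same order for Herc6 in cmExoaCD11b. In CD4 T cells Herc6 was 146 CPM in 97 cells with 0 Isg15 UMIs after thinning (115 to 182), of which 50 had held Isg15 before it, 189 CPM in 51 cells with 1 to 2 UMIs and 339 CPM in 53 cells with 3 or more (269 to 422). In other T cells it was 126 CPM (94.9 to 165), 187 CPM and 528 CPM (440 to 629). Usp18 was 54.2, 59.3 and 93.1 CPM in CD4 T cells and 46.8, 76.3 and 110 CPM in other T cells.

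Of the interferon signalling genes that act upstream, 10 of 40 combinations of gene and class with 50 UMIs were at least 2-fold higher in cmExoaCD11b, and all 10 were Stat2 or Irf9. Among all genes with 50 UMIs, 1.64% (B cells) to 5.46% (monocytes) were at least 2-fold higher in these classes. Ifnar1, Ifnar2, Jak1 and Tyk2, the receptor chains and kinases, gave none in the 7 classes. Stat2 was 3.0 times higher in mature neutrophils (2.65 to 3.39) and 7.77 times in monocytes (4.91 to 12.9). It was 3.84 times higher in CD8 T cells (2.35 to 6.61) and 2.39 times in CD4 T cells (1.31 to 4.64). Irf9 was 2.38 times higher in mature neutrophils (2.17 to 2.61) and 1.23 times in monocytes (0.753 to 2.02). In macrophages Stat2 was higher (3.75, 2.70 to 5.17), and Tyk2, named after its value was seen, was lower on 56 and 4 UMIs (0.361, 0.0950 to 0.976). B cells had Stat2 at 2.58 (1.58 to 4.35) and Irf9 at 2.72 (1.70 to 4.47). In other T cells 0 of 5 of these genes were at least 2-fold higher, with Stat2 at 1.99 (1.02 to 4.22) and Irf9 at 1.63 (0.909 to 3.09).

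The list of other genes of ISG15 biology held 5: Trim25 and Arih1, ligases that can act with ISG15, Usp16 and Skp2, and Itgal, part of the receptor of secreted ISG15. At least 2-fold higher were 2 of 30 combinations, both Trim25, in CD8 T cells (2.02, 1.39 to 3.01) and other T cells (2.21, 1.35 to 3.83), beside 1.64% to 5.46% of all genes in the 7 classes. In mature neutrophils Trim25 was 157 and 153 CPM (0.979, 0.934 to 1.03). The related ligases Herc1, Herc2, Herc3 and Herc4 gave 0 of 27, with a median ratio of 1.33 in mature neutrophils and 1.35 in CD8 T cells.

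The cascades of ubiquitin, NEDD8, SUMO and UFM1 gave few ratios of that size. Such ratios were also few among all genes, with 1.64% to 5.46% higher and 0.741% to 5.64% lower in the 7 classes. Of their 18 genes, 1 of 110 combinations with 50 UMIs was at least 2-fold higher in the 7 classes and 0 were lower. It was Uba1, the E1 enzyme of ubiquitin, in other T cells, on 10 and 69 UMIs (2.90, 1.49 to 6.32). In mature neutrophils Uba1 was 31.0 and 42.5 CPM (1.37, 1.24 to 1.52), the highest ratio of the 18, and Ube2l3, the ubiquitin E2 enzyme related to Ube2l6, was 133 and 120 CPM (0.908, 0.861 to 0.956). Ube2l3 was 0.932 in CD8 T cells (0.762 to 1.14) and 1.15 in monocytes (0.940 to 1.41). The median over the cascades was 0.99 in mature neutrophils, 1.15 in monocytes and 0.893 in CD8 T cells. In macrophages 1 gene, Ufl1, the E3 ligase of UFM1, was lower, on 91 and 8 UMIs (0.444, 0.186 to 0.912).

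**Figure D5:**
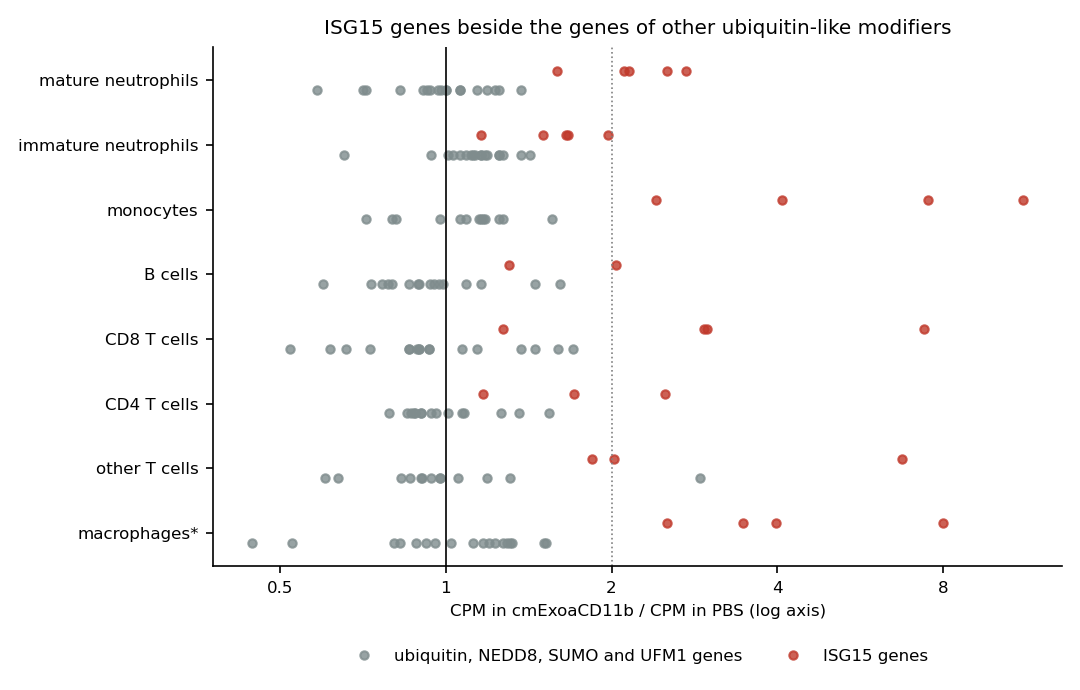
Ratio of the CPM in cmExoaCD11b to that in PBS (log axis) of each ISG15 gene (red) and each gene of the ubiquitin, NEDD8, SUMO and UFM1 cascades (grey) with at least 50 UMIs in both libraries together, by class, with the class marked * from the second gate. In monocytes the 4 red points lie between 2.41 and 11.2, and the grey points end at 1.56.

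Over the 17 combinations of class and library with at least 50 cells, Herc6 had the profile most like that of Isg15 among the other 4 genes, with a Pearson correlation of 0.807 on log2(CPM + 10), rank 36 of 10474 genes. Usp18 was at 0.684 (rank 190), Uba7 at 0.659 (rank 256) and Ube2l6 at 0.378 (rank 1713). Uba7 and Herc6 were also alike, at 0.849, whereas Uba7 and Ube2l6 were not, at 0.00921. The 10 genes most like Isg15 were Ifit1 (0.944), Parp10 (0.917), Fam129a (0.899), AW011738 (0.894), Ifih1 (0.890), Selplg (0.886), Irf1 (0.884), Fyb (0.883), Rtp4 (0.880) and Irgm2 (0.880). Ifit1, which binds foreign RNA, and Ifih1, a sensor of double-stranded RNA, are known interferon-stimulated genes, and Irf1 is an interferon-induced transcription factor. The points share 2 libraries and differ in depth, so these values only describe the profiles.

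Empty droplets, which hold free RNA, carried the same genes. Isg15 was 214 CPM in PBS and 470 CPM in cmExoaCD11b, a ratio of 2.19 (2.01 to 2.39), Herc6 28.7 and 83.9 CPM, Usp18 21.2 and 49.6 CPM, Ube2l6 39.8 and 60.4 CPM and Uba7 12.9 and 20.1 CPM. Free RNA thus moved with the result. From the neutrophil genes S100a8 and S100a9 in B cells, free RNA was 2.37% of the UMIs in both libraries with the first gate and 7.72% and 2.72% with the second. At the share of the first gate it would give 5.09 and 11.1 CPM of Isg15, below the intervals of B cells, and at that of the second 16.5 and 12.8 CPM, beside 36.2 CPM (27.4 to 46.9) and 44.0 CPM (33.7 to 56.5) in the B cells of that gate. The first gate leaves out B cells with many neutrophil marker genes, so its share can be too low. An assumed share of 10% would give 21.4 and 47.0 CPM, within the intervals of the B cells of the first gate (12.9 to 30 and 30 to 55.0). The part of free RNA in the B cell values was not tested. An antisense gene listed beside Usp18, Gm44148, had 238 and 398 UMIs of its own.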

How the data were processed

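Droplet libraries of pooled tumor-infiltrating mouse cells, 1 per treatment, were analysed. The authors deposited raw UMI counts per gene and barcode, empty droplets included. The matrix headers name Cell Ranger 7.1.0, another version than the methods of the paper, and the genome build behind the counts is not given in the sources used here, so no coordinates are printed. No replicate exists, and p-values were not computed.

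Cells were barcodes above the 99th percentile of the 3000 largest divided by 10, or with at least 500 UMIs and a profile unlike that of droplets of at most 100 UMIs (multinomial test, 10000 simulations, false discovery rate 0.01). Cells needed 200 genes and at most 20% mitochondrial UMIs. Scrublet (30 components) set no usable threshold, marking 0 cells, so the highest scores were removed at 0.8% per 1000 cells (421 and 453 cells).

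UMIs were summed per class and library. Ratios carry exact conditional 95% intervals, and at least 2-fold (or at most 0.5) with 50 UMIs counted as a call. Intervals treat UMIs as independent. The 5 genes are described in every class, listed genes by counts with values for Stat2, Irf9, Trim25, Ube2l3 and Uba1, and the 10 genes most like Isg15 among those with 200 UMIs. The genes, lists and markers were chosen with earlier results of these data known, and 1 listed gene is not reported here. The interval was run on simulated Poisson counts, which also treat UMIs as independent. It was thus not checked for UMIs that cluster in few cells. Alternatives covered cell calling, mitochondrial and doublet filters, gates, scaling, thinning and pseudocount. Python 3.11.15, scanpy 1.11.5, numpy 2.4.6, scipy 1.17.1 and pandas 2.3.3 were used.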

Additional observations from a re-analysis of the deposited data

Results flagged for a closer look

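Isg15 in NK cells had a ratio of 0.542 between the libraries, lower in cmExoaCD11b, whereas it was higher in 9 other classes (20 cells or more in each library). The difference between the classes was not tested, and the NK value rests on 25 PBS and 64 cmExoaCD11b cells. Only 5 of those PBS cells held Isg15. At 1000 UMIs per cell the share of NK cells with Isg15 was 16.7% in PBS (4.74% to 37.4%) and 19.4% in cmExoaCD11b (10.4% to 31.4%).

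All 5 genes were also higher in the empty droplets of cmExoaCD11b than in those of PBS, data outside the comparison of cells. The ratios were 2.19 for Isg15, 1.56 for Uba7, 1.52 for Ube2l6, 2.92 for Herc6 and 2.33 for Usp18, with intervals above 1. The difference was not tested over replicates, of which there were none.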

How the results depend on the processing

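No called ratio changed direction under any alternative. For Isg15 in mature neutrophils (2.52) the ranked-UMI limit alone gave 3.55, keeping doublets 2.62, a gate with no marker of another lineage 4.04, the second gate 2.35 and the mean of the cells' own CPM 2.80. In immature neutrophils (1.5) a gate of at least 3 markers gave 1.82, the second gate 4.75 and scaling by the median ratio of all genes 1.31. In monocytes (7.51) the ranked-UMI limit gave 8.96, the second gate 5.10 and the mean of the cells' own CPM 4.96. The second gate gave 1.22 in B cells and 2.62 in CD8 T cells. Of 240 ratios of the other 4 genes, 227 stayed within the counting interval of the value reported, 8 lay above and 5 below it. The ranked-UMI limit, which left only 3 of the 7 classes with 50 cells, lowered the classes at least 2-fold higher to 2 each for Isg15, Herc6 and Usp18. For Isg15 they were 3 rather than 4 with free RNA subtracted (B cells 1.99), median-ratio scaling (B cells 1.95) and the 10% mitochondrial limit (B cells just under 2), and 5 with the mean of the cells' own CPM. The second gate raised them from 1 to 2 for Uba7 and for Ube2l6, and the mean of the cells' own CPM did so for Ube2l6. Of the 10 genes most like Isg15, 8 were kept with a pseudocount of 1 CPM and 6 with the second gate, and the cause was not tested.

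The gate with no marker of another lineage left 50 cells in both libraries in mature neutrophils only. With 1 library per treatment none was left out, and no paired analysis was possible because each treatment is 1 pool of different mice. Depth limited Uba7 and Ube2l6 in lymphocytes, where most classes had fewer than 50 UMIs.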
